A study of Homo sapiens with 8 samples.

Results

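Genes of the neuronal cytoskeleton and of neurite growth were followed in IGR-N91 cells, an established human neuroblastoma (NB) line grown as aggregates in hanging drops. They were the rows of the count table whose Ensembl identifier maps to NEFL, NEFM, NEFH, INA, PRPH, VIM, NES, GAP43, STMN2 or DCX, which made 10 of 60676 identifiers. Aggregates received control medium, in which no tissue had been cultured, or 1 of 3 conditioned media. E8-cSGcm came from sympathetic ganglia and E8-cDRGcm from dorsal root ganglia of chick embryos at embryonic day 8 (E8), and E15.5-mSGcm from sympathetic ganglia of mouse embryos at the day in its name, which the study takes as close to the chick stage. Each medium had 2 libraries of total RNA, retrieved after 20 h by the treatment protocol and 24 h by the design text. All groups were the same single cell line, and the medium was the only labelled difference. The control libraries carry E8 in their column names, as the chick-medium libraries do, and no control carries the mouse stage. The study also used this line with a stable GFP transgene, and which of both was sequenced is not stated in the sources used here. The species, the stage and the ganglion of E15.5-mSGcm against E8-cDRGcm changed together and cannot be told apart. The study's methods speak of duplicates and of distinct samples, without saying whether the 2 libraries of a group came from separate cultures or ganglion preparations, so p-values measure the spread between these libraries, which may be technical.

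Intermediate filaments are rope-like polymers that give a cell mechanical strength, and their subunits change as a neural cell matures. Progenitors use vimentin (VIM) and nestin (NES). Young and peripheral neurons add internexin alpha (INA) and peripherin (PRPH), and growing axons fill with the light, medium and heavy neurofilament chains (NEFL, NEFM, NEFH). Growing neurites also carry proteins of the growth cone and of dynamic microtubules. GAP43 lies under the growth cone membrane, stathmin-2 (STMN2) binds free tubulin and is needed for axon repair, and doublecortin (DCX) stabilises microtubules in migrating young neurons. Many neuroblastomas, tumours of the sympathetic lineage, express these neuronal genes.

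The stretches before the RefSeq start of PRPH, VIM, NES and GAP43 are shown because these 4 genes were all higher in both chick media and lower in E15.5-mSGcm than in control medium, as described further on. RefSeq windows (GRCh38.p14) were matched for 6 of the 10 genes. NEFL had the same pattern but was not among them. Each line gives the 150 bases that end at the base before the start, 5′ to 3′ on the gene's strand. The positions are chr12:49294997-49295146 on the plus strand for PRPH, chr10:17228091-17228240 on the plus strand for VIM, chr1:156677408-156677557 on the minus strand for NES and chr3:115623360-115623509 on the plus strand for GAP43. Capitals mark a TATA box in PRPH, a GC box in VIM, 2 GC boxes in NES and a CCAAT box in GAP43.
PRPH: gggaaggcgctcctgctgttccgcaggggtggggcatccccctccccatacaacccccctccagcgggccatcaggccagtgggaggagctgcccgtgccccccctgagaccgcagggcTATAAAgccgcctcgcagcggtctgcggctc
VIM: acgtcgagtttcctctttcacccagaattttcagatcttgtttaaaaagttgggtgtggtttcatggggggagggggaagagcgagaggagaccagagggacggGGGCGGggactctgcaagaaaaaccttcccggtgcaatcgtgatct
NES: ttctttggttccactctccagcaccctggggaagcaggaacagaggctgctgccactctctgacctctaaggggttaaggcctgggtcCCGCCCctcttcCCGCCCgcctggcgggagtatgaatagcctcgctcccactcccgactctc
GAP43: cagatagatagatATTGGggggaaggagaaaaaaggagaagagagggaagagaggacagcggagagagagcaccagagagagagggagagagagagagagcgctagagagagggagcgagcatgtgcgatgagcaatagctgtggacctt

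Over the 250 bases before the start, both strands were searched for 7 motifs. They were the TATA box (TATAAA), the CCAAT box (its name is its letters), the GC box (GGGCGG), the AP-1 site (TGANTCA), the E-box CAGCTG, the E-box with CACCTG, and the cyclic AMP response element (TGACGTCA). Among the 4 genes shown, PRPH held a TATA box beginning 31 bases before its start, and GAP43 held a CCAAT box, read on the other strand, beginning 137 bases before. VIM held a GC box at 46 bases and NES held GC boxes at 62 and 50 bases before the start, in NES on the other strand. None of the 4 windows held the AP-1 site, either E-box or the cyclic AMP response element, no motif was common to all 4, and no matches overlapped. Of 35116 windows of the same length, 10.7% held a TATA box, 32% a CCAAT box, 42.6% a GC box, 6.57% an AP-1 site, 14% the first E-box, 17.5% the second and 1.65% the cyclic AMP response element. These matches describe letters in the windows and say nothing of bound factors.

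Library totals ranged from 7930765 to 15060744 counts, with both E15.5-mSGcm libraries the smallest. On these totals 3 counts were worth 0.199 to 0.378 CPM, counts scaled to the library total. The CPM of single genes were also scaled between libraries by TMM, and the summed levels of marker lists were not. All 10 genes passed the filter on low counts. The 2 libraries of a group differed in a gene's CPM by a coefficient of variation of 0.00734% to 8.85%, with a median of 2.74%. Of 8 noradrenergic NB markers, CHGA was listed at 0 in every library, and the summed level of the list was 1346 to 1368 CPM in control, 1113 to 1207 in E8-cSGcm, 1056 to 1091 in E8-cDRGcm and 973 to 1014 in E15.5-mSGcm. Among the Schwann cell markers, SOX10 and FOXD3 were at 0 in every library, and the summed level of the list was 1.13 to 4.00 CPM. Leukocyte markers summed to at most 1.13 CPM, endothelial markers to at most 1.62 CPM and sensory neuron markers to at most 8.08 CPM.

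Compared per kilobase (kb) of exon, STMN2 was the most abundant of the 10 transcripts in control medium, with a mean of 584 CPM per kb, rank 51 of 16574 genes. NEFM followed at 158 and NEFH at 124 CPM per kb. VIM, NEFL, PRPH, NES and INA lay close together at 108, 103, 98.2, 95.9 and 94.8 CPM per kb. In that run the libraries of PRPH and NES overlapped, as did those of NES and INA. GAP43, at 25.7, and DCX, at 17.2 CPM per kb, were the lowest. The order held at the top in all 4 media, where STMN2 came first and NEFM second. It turned at the bottom, where DCX lay above GAP43 in both E15.5-mSGcm libraries (22.1 against 18.5 and 17.8 CPM per kb) and below it in the other 6.

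**Figure D1:**
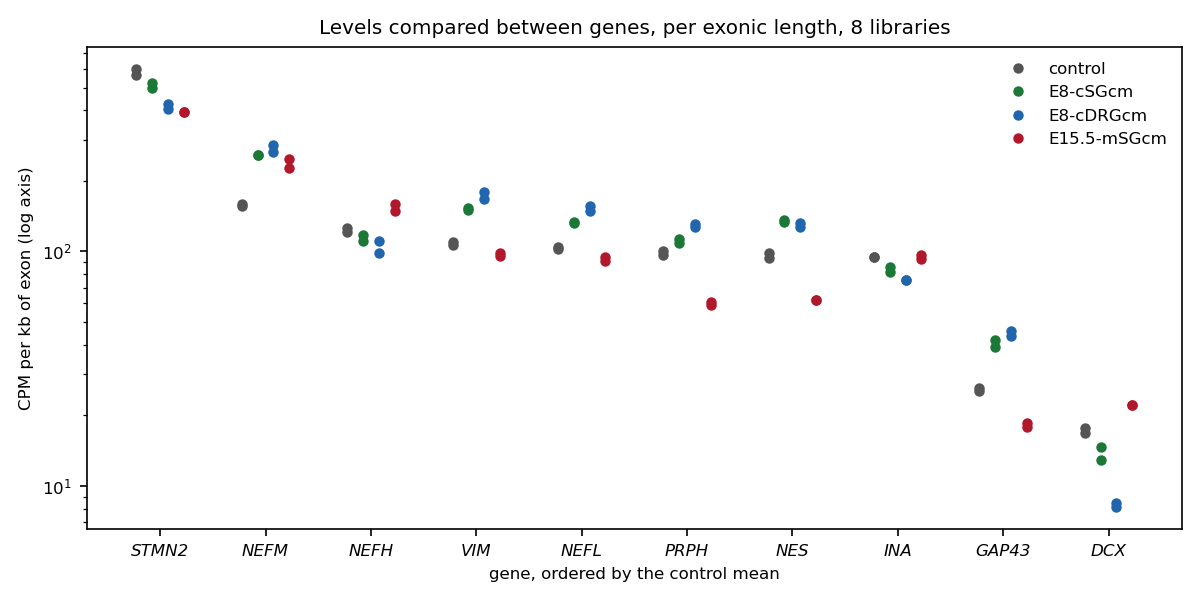
CPM per kb of exon on a log axis for the 10 genes, ordered by their mean in control medium, with 1 point for each of the 8 libraries. STMN2 sits highest in every medium, and GAP43 and DCX change places in E15.5-mSGcm.

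Each medium was compared with control medium, and the media with each other, in 1 edgeR model of all 8 libraries. Called genes differed by 1.5-fold or more, with a Benjamini-Hochberg adjusted p below 0.05. In E8-cSGcm, 2 of the 10 genes, NEFM and GAP43, were called higher, where 4.73% of all 16680 tested genes were, and 0 were called lower, where 3.86% were. Of the same genes 4 were lower at an unadjusted p under 0.05 in edgeR, a count not made over all genes, and DESeq2 also called 0 lower. At an adjusted p under 0.05 alone, 3 of the 10 were lower, beside 2534 of all 16680 genes. In E8-cDRGcm, 3 genes, NEFM, VIM and GAP43, were called higher (9.81% of all genes) and DCX was the 1 gene called lower (10.9% of all genes). In E15.5-mSGcm, NEFM was the 1 gene called higher (6.65% of all genes), and PRPH and NES were the 2 called lower (7.27% of all genes). Most of the other differences were smaller than 1.5-fold but past the adjusted p. On that threshold alone 9 of the 10 genes differed from control in E8-cSGcm, 10 in E8-cDRGcm and 9 in E15.5-mSGcm. Of all 16680 tested genes, 5213, 8261 and 6305 passed it in the same media. The median log2 fold change of the 10 genes was 0.27 in E8-cSGcm, 0.42 in E8-cDRGcm and -0.16 in E15.5-mSGcm, beside 0.010, 0.0055 and -0.015 over all tested genes. The 3 comparisons share their control libraries. Whether the libraries of groups overlap is described below for each gene. With 2 libraries a group such separation is easily reached, and its share over all genes was not counted. In bulk RNA, fewer cells that carry a transcript and less of it per cell cannot be told apart.

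**Figure D2:**
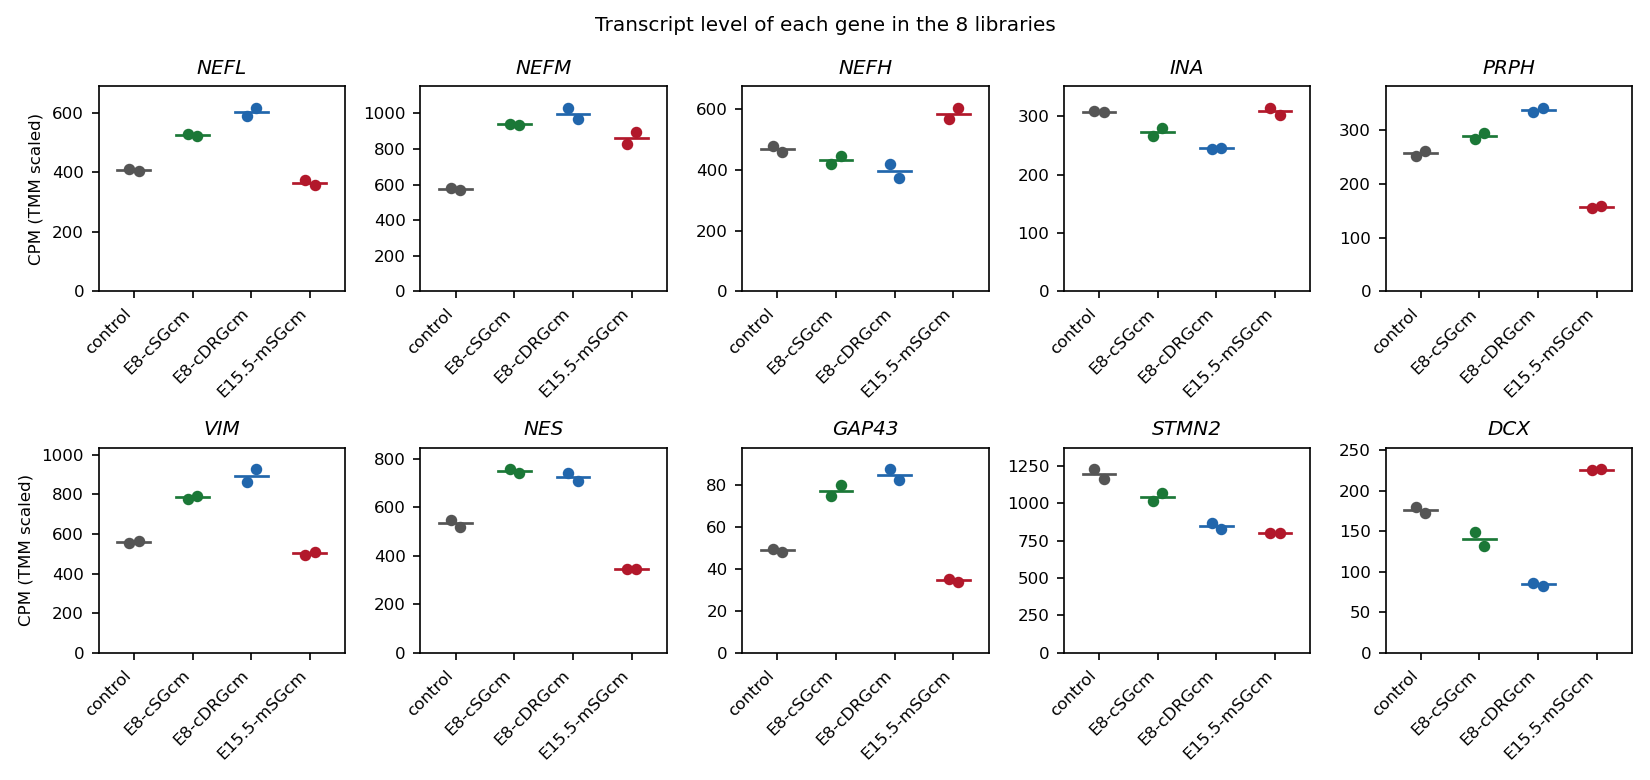
CPM (TMM scaled, linear axis from 0) of each gene in the 8 libraries, with points for libraries and bars for the mean of 2. GAP43, NES, PRPH, VIM and NEFL are highest in chick media and lowest in E15.5-mSGcm, DCX runs the other way, NEFM is above control in every conditioned medium and STMN2 below it.

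The 3 neurofilament chains did not move as a unit. NEFM, the medium chain (GRCh38.p14 chromosome 8, 24913761 to 24919093, plus strand), was at 579 and 567 CPM in control, 939 and 937 in E8-cSGcm, 1031 and 968 in E8-cDRGcm, and 825 and 896 in E15.5-mSGcm. Every library of a conditioned medium lay above both control libraries. NEFM rose by a log2 fold change of 0.71 in E8-cSGcm (SE 0.049, adjusted p = 3.84e-14, edgeR), 0.80 in E8-cDRGcm (SE 0.049, adjusted p = 2.44e-16, edgeR) and 0.59 in E15.5-mSGcm (SE 0.050, adjusted p = 3.35e-12, edgeR). The last of these lay at the fold minimum and fell under that minimum without control replicate 2 (0.56) and without E15.5-mSGcm replicate 2 (0.52). A gene on the opposite strand of NEFM, ENSG00000272163, had at most 5.14% of its count.

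NEFL, the light chain on which the other chains assemble (chromosome 8, 24950955 to 24956612, minus strand), was at 411 and 404 CPM in control, 527 and 520.3 in E8-cSGcm, 588 and 615 in E8-cDRGcm, and 372 and 357 in E15.5-mSGcm. The chick media were above control and the mouse medium below it, with no overlap of libraries. Its log2 fold changes were 0.36 in E8-cSGcm (SE 0.047, adjusted p = 1.38e-07), 0.56 in E8-cDRGcm (SE 0.047, adjusted p = 1.32e-12) and -0.16 in E15.5-mSGcm (SE 0.049, adjusted p = 0.00837), all by edgeR and all under the fold minimum. The E8-cDRGcm difference passed it without E8-cDRGcm replicate 1 (0.59) and when libraries were corrected for GC content and gene length (0.61), an alternative added after the data were seen. NEFH, the heavy chain of mature axons (chromosome 22, 29480218 to 29491390, plus strand), was at 478 and 459.9 CPM in control, 421 and 445 in E8-cSGcm, 421 and 375 in E8-cDRGcm, and 567 and 604 in E15.5-mSGcm. It was lowest in the chick media and highest in the mouse medium, the reverse of NEFL. The log2 fold change of NEFH was -0.12 in E8-cSGcm (SE 0.053), which missed the threshold at an adjusted p of 0.0935 by edgeR. It was -0.24 in E8-cDRGcm (SE 0.053, adjusted p = 0.000276, edgeR) and 0.32 in E15.5-mSGcm (SE 0.053, adjusted p = 7.29e-06, edgeR), both under the fold minimum.

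**Figure D3:**
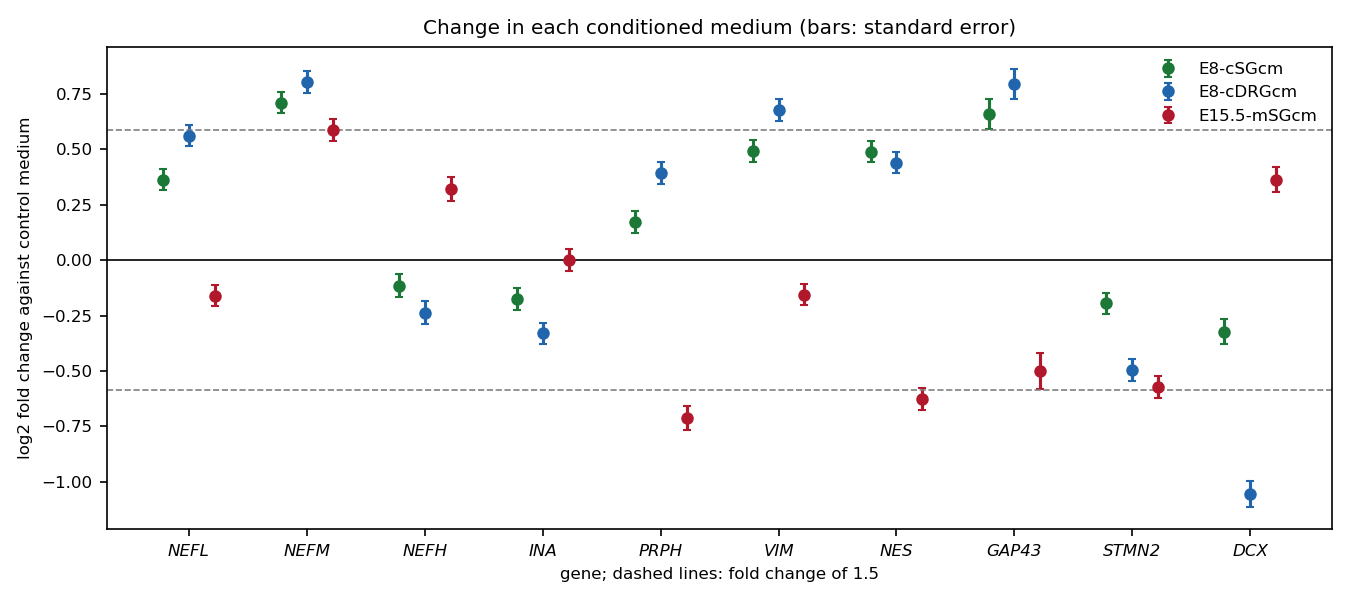
Log2 fold change of the 10 genes in each conditioned medium against control medium, with the standard error as bars and dashed lines at a fold change of 1.5. NEFM is above 0 and STMN2 below 0 in all 3 media, while DCX reaches -1.06 in E8-cDRGcm and 0.36 in E15.5-mSGcm.

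Peripherin and internexin, the other 2 neuronal filament genes, parted from each other. PRPH (chromosome 12, 49295147 to 49298686, plus strand) was at 252 and 262 CPM in control, 284 and 295 in E8-cSGcm, 334 and 341 in E8-cDRGcm, and 155 and 159 in E15.5-mSGcm. Both mouse-medium libraries lay under every other library. PRPH fell by 0.71 on the log2 scale in E15.5-mSGcm (SE 0.052, adjusted p = 8.15e-14, edgeR), and was 0.17 (SE 0.049, adjusted p = 0.00621, edgeR) and 0.39 (SE 0.048, adjusted p = 1.3e-08, edgeR) above control in E8-cSGcm and E8-cDRGcm, under the fold minimum. PRPH has the highest GC content of the 10 genes, 63.4%, and its call in E15.5-mSGcm was lost, at -0.47, with the GC and length correction. Apart from fits with a library left out, its alternatives in E8-cSGcm ranged from 0.070 to 0.18. INA (chromosome 10, 103277138 to 103290346, plus strand) was at 309 and 307 CPM in control, 266 and 279 in E8-cSGcm, 244 and 246 in E8-cDRGcm, and 315 and 303 in E15.5-mSGcm. Its mouse-medium libraries lay on either side of the control libraries, and its chick-medium libraries lay below them. The log2 fold change of INA was -0.18 in E8-cSGcm (SE 0.048, adjusted p = 0.00468, edgeR), -0.33 in E8-cDRGcm (SE 0.049, adjusted p = 4.68e-07, edgeR) and 0.0022 in E15.5-mSGcm (SE 0.049, adjusted p = 0.979, edgeR). NT5C2, on the opposite strand, had up to 19.6% of the INA count, and the strand option of the counting is not given in the sources used here.

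Shares within a library do not depend on scaling between libraries. Of the summed CPM per kb of NEFL, NEFM, NEFH, INA and PRPH, NEFM made 27.4% and 27.2% in control, 37.3% and 36.5% in E8-cSGcm, 38.0% and 36.6% in E8-cDRGcm, and 36.2% and 37.9% in E15.5-mSGcm. PRPH made 16.6% and 17.4% in control and 9.43% and 9.34% in E15.5-mSGcm, against 15.7% to 17.9% in the chick media. INA made 16.4% and 16.5% in control and 10.1% to 12.2% in the chick media. The share of NEFM was thus above control in all 6 conditioned libraries, with lower shares of INA and NEFH in the chick media and of PRPH, NEFL and INA in the mouse medium. PRPH was also below control in both E8-cSGcm libraries. The ratio of NEFM to NEFL was 1.53 and 1.52 in control, 1.93 and 1.95 in E8-cSGcm, 1.9 and 1.7 in E8-cDRGcm, and 2.40 and 2.72 in E15.5-mSGcm. The sum of the 5 was 581 and 574 CPM per kb in control and higher in all 6 conditioned libraries, from 627 to 746. These shares were not tested.

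**Figure D4:**
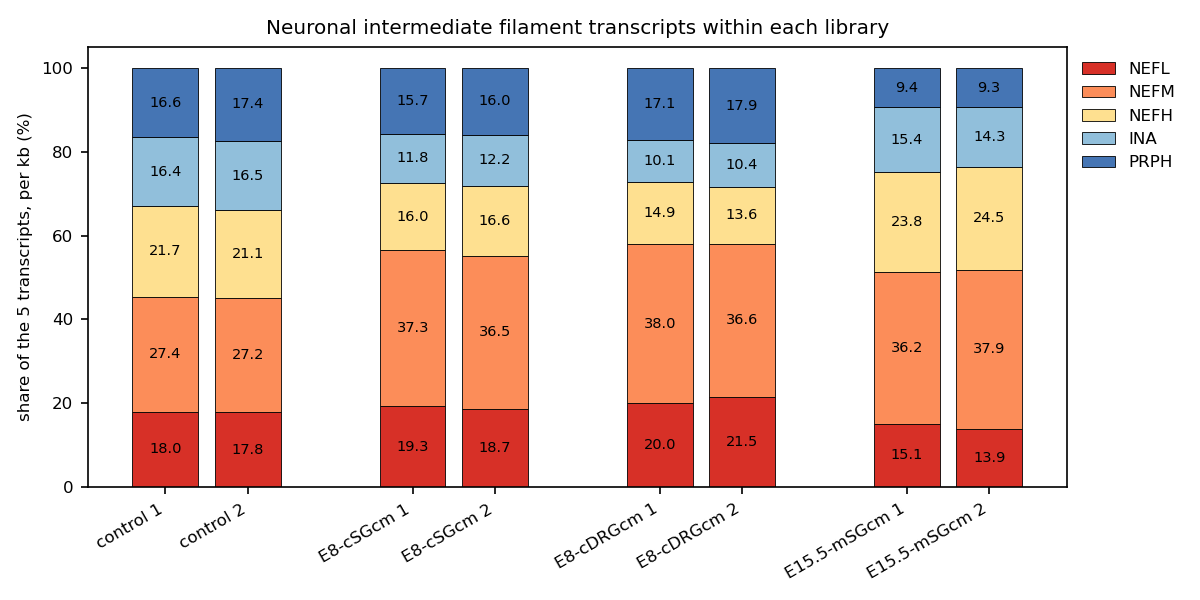
Share (percent) of NEFL, NEFM, NEFH, INA and PRPH in their summed CPM per kb, with 1 stacked bar per library. NEFM makes 27.2% and 27.4% in control and at least 36.2% in every conditioned library, and PRPH makes 9.34% and 9.43% in E15.5-mSGcm.

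The filament genes of progenitor and mesenchymal cells moved with NEFL and PRPH. VIM (chromosome 10, 17228241 to 17237593, plus strand) was at 552 and 566 CPM in control, 779 and 794 in E8-cSGcm, 862 and 926 in E8-cDRGcm, and 496 and 508 in E15.5-mSGcm. The 4 groups did not overlap. VIM rose by 0.68 in E8-cDRGcm (SE 0.048, adjusted p = 1.18e-14, edgeR) and was 0.49 above control in E8-cSGcm (SE 0.048, adjusted p = 2.25e-10, edgeR) and 0.16 below it in E15.5-mSGcm (log2 fold change -0.16, SE 0.049, adjusted p = 0.0106, edgeR), both under the fold minimum. NES (chromosome 1, 156668763 to 156677407, minus strand) was at 547 and 520.1 CPM in control, 755 and 742 in E8-cSGcm, 739 and 709 in E8-cDRGcm, and 346 in both E15.5-mSGcm libraries. Both chick media lay above control and the mouse medium lay below it in every library. NES fell by 0.63 on the log2 scale in E15.5-mSGcm (SE 0.049, adjusted p = 4.14e-13, edgeR). With the GC and length correction the call was lost, at -0.45. In the chick media NES was 0.49 (SE 0.047, adjusted p = 1.89e-10) and 0.44 (SE 0.047, adjusted p = 5.52e-10) above control by edgeR, under the fold minimum.

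Fibroblast markers also moved in E15.5-mSGcm, where VIM and NES were lowest. Of 6 such markers, COL1A2, DCN, LUM and PDGFRA were called higher and COL1A1 lower there against control, with log2 fold changes of 2.01, 2.30, 0.93, 3.65 and -1.82. Of all genes, 6.65% were called higher and 7.27% lower in that medium. The summed level of the 6 was 160 to 176 CPM in control, 217 to 226 in E8-cSGcm, 189 to 198 in E8-cDRGcm and 158 to 172 in E15.5-mSGcm. This sum joins markers that moved in opposite directions. Fibroblasts can also carry VIM and NES, and the part of other cells in their levels was not tested.

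GAP43 (chromosome 3, 115623510 to 115721483, plus strand) was at 49.6 and 48.2 CPM in control, 74.6 and 79.8 in E8-cSGcm, 87.4 and 82.4 in E8-cDRGcm, and 35.2 and 33.9 in E15.5-mSGcm. Chick media lay above control and the mouse medium below it in all libraries. GAP43 rose by 0.66 in E8-cSGcm (SE 0.068, adjusted p = 7.37e-10, edgeR) and by 0.80 in E8-cDRGcm (SE 0.067, adjusted p = 1.34e-12, edgeR). In E15.5-mSGcm its log2 fold change was -0.50 (SE 0.082, adjusted p = 5.5e-06, edgeR), under the fold minimum.

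STMN2 (chromosome 8, 79611117 to 79666158, plus strand) was at 1226 and 1159 CPM in control, 1012 and 1071 in E8-cSGcm, 866 and 826 in E8-cDRGcm, and 804 and 799.7 in E15.5-mSGcm. Control was the highest group, and no conditioned library reached it. The log2 fold change of STMN2 was -0.19 in E8-cSGcm (SE 0.048, adjusted p = 0.00172, edgeR), -0.50 in E8-cDRGcm (SE 0.048, adjusted p = 5.8e-11, edgeR) and -0.57 in E15.5-mSGcm (SE 0.049, adjusted p = 3.94e-12, edgeR), each past the adjusted p but under the fold minimum. In E15.5-mSGcm it passed that minimum without control replicate 2 (-0.62), with library totals alone (-0.61), with genes of at least 1 count (-0.63) and with the GC and length correction (-0.68).

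DCX (chromosome X, 111293779 to 111412192, minus strand) had the widest range of group means of log2 CPM of the 10 genes. It was at 179 and 172 CPM in control, 149 and 132 in E8-cSGcm, 86.3 and 82.7 in E8-cDRGcm, and 226 in both E15.5-mSGcm libraries. The 4 groups were fully apart, in the order E15.5-mSGcm, control, E8-cSGcm and E8-cDRGcm. DCX fell by 1.06 on the log2 scale in E8-cDRGcm (SE 0.059, adjusted p = 1.33e-17, edgeR). It was 0.32 below control in E8-cSGcm (log2 fold change -0.32, SE 0.056, adjusted p = 2.22e-05, edgeR) and 0.36 above it in E15.5-mSGcm (SE 0.056, adjusted p = 2.25e-06, edgeR), both under the fold minimum. Over the 8 libraries, the 3 genes nearest to it by the root mean square difference of centred log2 CPM were ELN (0.0541), PEG10 (0.0644) and SUMF1 (0.0843), among 12374 protein-coding genes. Within a library, the ratio of GAP43 to DCX per kb was 1.49 and 1.503 in control, 2.68 and 3.25 in E8-cSGcm, 5.43 and 5.35 in E8-cDRGcm, and 0.837 and 0.806 in E15.5-mSGcm.

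The media were also tested directly. Between the 2 chick media DCX was the 1 gene called higher in E8-cSGcm than in E8-cDRGcm (4.87% of all genes), by 0.73 (SE 0.060, adjusted p = 4.01e-12, edgeR), and 0 were called lower (2.62% of all genes). Of the 10 genes, 4 were lower at an unadjusted p under 0.05 in edgeR, a count not made over all genes, and DESeq2 called 0 lower. At an adjusted p under 0.05 alone, 3 of the 10 were lower, beside 2456 of all 16680 genes. STMN2 was 0.30 higher in E8-cSGcm (SE 0.048, adjusted p = 6.95e-06, edgeR), and NEFL, PRPH and VIM were 0.20, 0.22 and 0.19 lower (log2 differences of -0.20, -0.22 and -0.19), under the fold minimum. NEFM, NEFH, NES and GAP43 missed the adjusted p between the chick media.

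Against E8-cSGcm, E15.5-mSGcm had 1 of the 10 genes called higher (10.2% of all genes) and 4 called lower (12.1% of all genes). GAP43 was lower by 1.16 on the log2 scale (log2 difference -1.16, SE 0.078, adjusted p = 3.28e-15), NES by 1.11 (-1.11, SE 0.049, adjusted p = 2.04e-20), PRPH by 0.88 (-0.88, SE 0.052, adjusted p = 8.71e-17) and VIM by 0.65 (-0.65, SE 0.049, adjusted p = 7.83e-14), all by edgeR. DCX was higher by 0.69 (SE 0.057, adjusted p = 1.34e-12, edgeR). With the GC and length correction, PRPH at -0.54 and DCX at 0.56 were under the fold minimum. NEFH passed the minimum with that correction, at 0.65, from 0.44 (adjusted p = 1.27e-08, edgeR) without it. These 2 media come from the same kind of ganglion of 2 species, at stages that the study takes as close, and species and remaining stage differences cannot be told apart.

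Against E8-cDRGcm, E15.5-mSGcm had 1 gene called higher (13.1% of all genes) and 5 called lower (13.1% of all genes). DCX was higher by 1.42 (SE 0.060, adjusted p = 2.5e-21, edgeR), the largest difference among the 10 genes in any of the 6 comparisons. The 5 lower genes were GAP43 (log2 difference -1.30), PRPH (-1.11), NES (-1.07), VIM (-0.83) and NEFL (-0.72). NEFH was higher by 0.56 (SE 0.053, adjusted p = 3.17e-11, edgeR), under the fold minimum, and passed it without E8-cDRGcm replicate 1 (0.65) or without E15.5-mSGcm replicate 1 (0.60) and with the GC and length correction (0.66). The median of the 10 genes was -0.45 against E8-cSGcm and -0.47 against E8-cDRGcm, beside -0.013 and -0.00050 over all genes.

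Relatives of the 10 genes were read from lists of the same families. Among the other 3 stathmins, all tested, which bind tubulin as STMN2 does, STMN3 was called lower in both chick media, by 0.76 and 1.37 (log2 fold changes -0.76 and -1.37), and was at -0.56 in E15.5-mSGcm. STMN4, at 1.36 CPM in control, was called higher in E15.5-mSGcm (1.60). DCLK1, a kinase with doublecortin domains and 1 of 2 tested family members of DCX, ran opposite to DCX, with 0.70 and 1.15 in the chick media and -1.05 in E15.5-mSGcm, all called. Of all genes, 3.86%, 10.9% and 7.27% were called lower in E8-cSGcm, E8-cDRGcm and E15.5-mSGcm, and 4.73%, 9.81% and 6.65% were called higher. Neuronal tubulins, the subunits that STMN2 and DCX bind, had 1 of 6 called in E8-cSGcm (TUBA4A, 1.25), 2 in E8-cDRGcm (TUBA4A at 0.88 and TUBB2A at 0.71), and 3 in E15.5-mSGcm. The first 2 sets were higher, where 4.73% and 9.81% of all genes were, and the last was lower, where 7.27% were: TUBB2A (-1.05), TUBB3 (-0.95) and TUBB4A (-0.93). TUBB3 was at 4.05 CPM in control and 2.09 in E15.5-mSGcm. Against E8-cSGcm, 5 of 6 tubulins were called lower in E15.5-mSGcm (12.1% of all genes), TUBA1A being the exception, from -0.68 for TUBB2B to -1.55 for TUBB2A.

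KRT8 (0.82) and KRT18 (0.93), keratins of simple epithelia, were 2 of 7 other filament genes called higher in E8-cSGcm (4.73% of all genes), and KRT18 (1.76) and LMNA (0.87), a nuclear lamin, in E8-cDRGcm. In E15.5-mSGcm, SYNM, a partner of other filament subunits, was called higher (0.59) and KRT8 lower (-1.54). KRT8 was a low transcript, at 1.79 CPM in control and 0.606 in E15.5-mSGcm, with 5 to 52 counts a library. Of the linker proteins that tie filaments together, PLEC was called higher in E8-cDRGcm (1.13), and DST (0.72) in E15.5-mSGcm. KIF5A, a motor that carries neurofilaments, was 1 of 3 among 10 motor genes called higher in E8-cDRGcm (0.73, where 9.81% of all genes were), with the dynein genes DYNC1H1 (0.66) and DYNC1I1 (0.63), while DYNLL1 was called lower (-0.72). Among 7 microtubule-associated proteins, MAP1A and MAP4 were called higher in E8-cDRGcm (0.76 and 0.59) and MAP7 lower in both chick media (-0.65 and -0.94). MAP6, at 2.62 CPM in control, was called lower in E15.5-mSGcm (-1.26). Over all genes, 4.73%, 9.81% and 6.65% were called higher in E8-cSGcm, E8-cDRGcm and E15.5-mSGcm, and 3.86%, 10.9% and 7.27% were called lower. MAPT, the gene of tau, was listed at 0 in every library.

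Of 9 growth cone membrane proteins, CNTN2, an axonal adhesion molecule, was called lower in all 3 media (-0.91, -1.22 and -2.03), MARCKSL1 in E8-cDRGcm (-0.71) and GPM6B in E15.5-mSGcm (-1.35), which makes 1, 2 and 2 called lower in the 3 media (3.86%, 10.9% and 7.27% of all genes), while NCAM1 was called higher in E8-cDRGcm (0.66). CNTN2 was at 5.95 CPM in control and 1.45 in E15.5-mSGcm. DPYSL4, of the 5 collapsin response mediators, was called lower in E15.5-mSGcm (-1.14, where 7.27% of all genes were). Among 11 actin regulators, VASP, which promotes actin growth in filopodia, was the 1 called higher in E8-cDRGcm (0.73). TMSB10 was the 1 called lower in E15.5-mSGcm (-0.59). Each made 9.09% of the list, beside 9.81% and 7.27% of all genes called in those directions. Of 9 genes that act on the transcription or the RNA of neurite genes, PTBP2, a splicing factor of young neurons, was called lower in all 3 media (-0.66, -1.24 and -0.95). REST, a repressor of neuronal genes, was called higher in E8-cDRGcm (0.78), and TARDBP, needed for correct STMN2 splicing, lower there (-0.71). CELF4 was called higher in E15.5-mSGcm (0.69). Beside these stand 3.86%, 10.9% and 7.27% of all genes called lower in the 3 media. Called higher were 9.81% in E8-cDRGcm and 6.65% in E15.5-mSGcm.

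**Figure D5:**
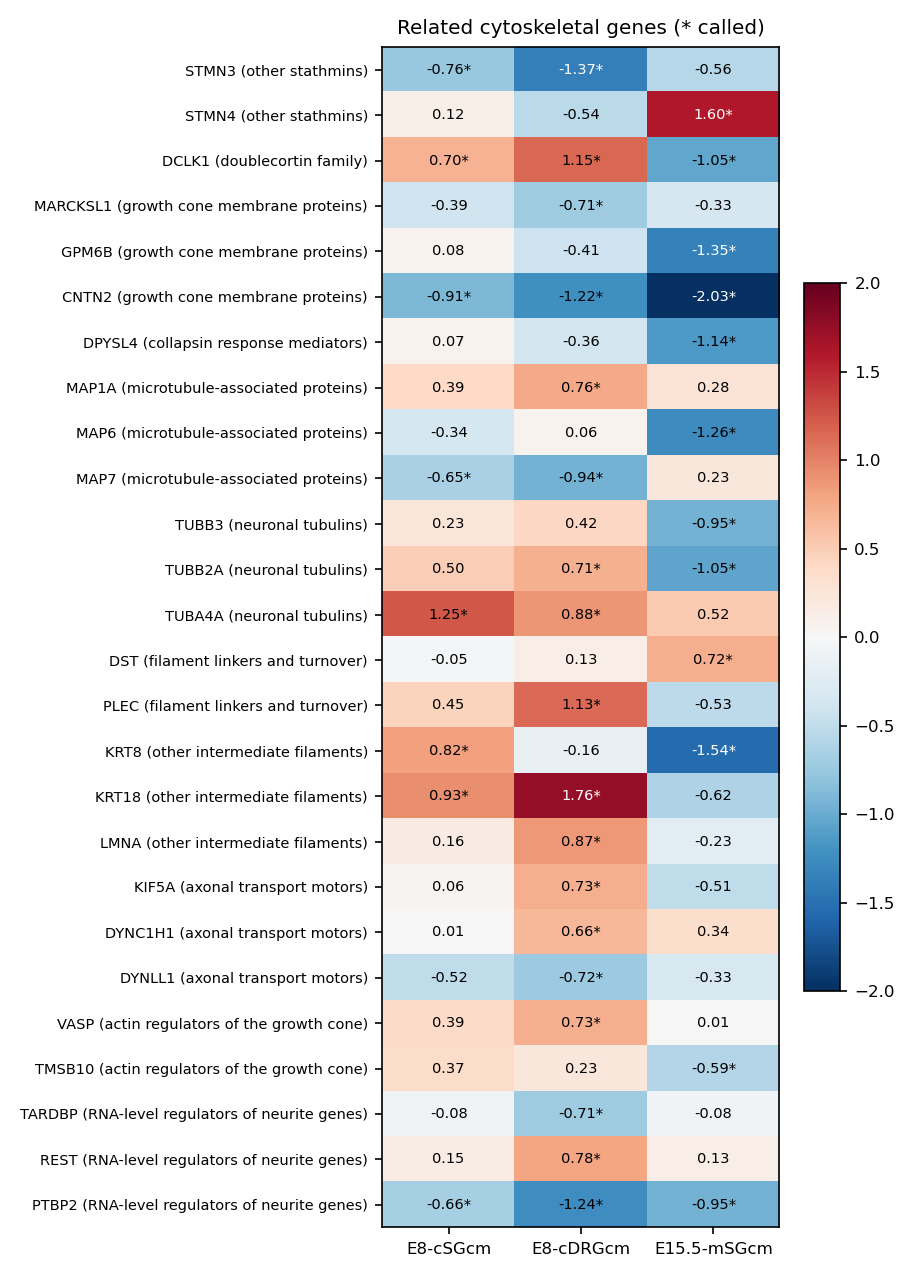
Log2 fold change against control of the named related genes in the 3 conditioned media, by colour and number, with a star where called. DCLK1 is higher in both chick media and lower in E15.5-mSGcm, and CNTN2 and PTBP2 are lower in all 3.

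The 10 genes fall on both sides of the study's extended lists of noradrenergic and mesenchymal NB identity. The study also has restricted lists of both identities, which were not counted here. NEFL, NEFM, INA, PRPH, GAP43, STMN2 and DCX are in the noradrenergic list, VIM and NES are in the mesenchymal list, and NEFH is in neither. Of 337 tested noradrenergic genes, 13 were called higher and 30 lower in E8-cSGcm (3.86% and 8.90%), 28 and 58 in E8-cDRGcm (8.31% and 17.2%), and 20 and 37 in E15.5-mSGcm (5.93% and 10.98%). Of 423 tested mesenchymal genes, 44 were called higher and 15 lower in E8-cSGcm (10.4% and 3.55%), 88 and 29 in E8-cDRGcm (20.8% and 6.86%), and 50 and 43 in E15.5-mSGcm (11.8% and 10.2%). Of all tested genes, 4.73% and 3.86%, 9.81% and 10.9%, and 6.65% and 7.27% were called higher and lower in the same media. NEFM and GAP43 were called higher in both chick media, where the median log2 fold change of their noradrenergic list was -0.013 and -0.048. INA, STMN2 and DCX, of the same list, lay below control in both chick media, with DCX called lower in E8-cDRGcm. NEFL and PRPH lay above control there, under the fold minimum. VIM and NES lay above control in the chick media, where the median of their mesenchymal list was 0.096 and 0.13, and below it in E15.5-mSGcm, where it was 0.084.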

How the data were processed

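Total RNA of 8 IGR-N91 libraries (50 ng, SMARTer stranded kit, 75 bp single reads) was counted by the authors, who deposited raw counts per Ensembl gene without normalization. The submitters' processing notes name bcl2fastq 2.17.1.14, cutadapt 1.9.1, TopHat2 2.1.0 and HTSeq 0.11.3. The notes name GRCh38 and the study's methods hg19. Coordinates printed here are those of RefSeq on GRCh38.p14. The strand option and annotation release are not given in the sources used here.

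Library columns were assigned to groups by the titles. Counts were scaled by TMM and tested with edgeR 4.0.16 in R 4.3.3 (filterByExpr by group, robust quasi-likelihood fit, 1 model of 8 libraries), with Benjamini-Hochberg adjustment over 16680 genes. SE is the log2 fold change divided by the root of F. Of 60676 identifiers, 58611 matched a symbol. CPM per kb used exonic lengths of GENCODE release 44 mapped to GRCh37. Log2 CPM had a prior count of 2. DESeq2 1.42.0, RLE and upper-quartile scaling, library totals, 2 filters on low counts, a fit of the compared groups alone, a replicate block, adjusted p alone and each library left out were the alternatives. A GC and length correction (splines with 5 degrees of freedom) and thinning to the smallest library were added after the data were seen. Scripts were tested on simulated data. Figures used matplotlib 3.10.9.

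All 10 genes were described. From each related list the 3 genes with the largest change among those called against control were named, and other genes were named after their values were seen. Some genes of these lists are not reported here. Genes nearest to DCX were the 3 protein-coding genes with the smallest difference. The 10 genes and all lists were chosen with earlier results of these data known.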

Additional observations from a re-analysis of the deposited data

Results flagged for a closer look

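Differences between the media stood out where a gene passed the adjusted p against control in opposite directions in 2 media and the media were called different in a direct edgeR test. In E15.5-mSGcm against E8-cSGcm this held for PRPH (log2 difference -0.88), VIM (-0.65), NES (-1.11), GAP43 (-1.16) and DCX (0.69). In E15.5-mSGcm against E8-cDRGcm it held for NEFL (-0.72), PRPH (-1.11), VIM (-0.83), NES (-1.07), GAP43 (-1.30) and DCX (1.42). Of these genes, DCX was the 1 higher in the mouse medium in both comparisons. The smaller totals of the mouse-medium libraries moved with these results, and the counts of called genes among the 10 were equal after every library was thinned to the smallest total, in all 6 comparisons. Thinning evens out depth alone, and what made these totals smaller was not tested. With 2 libraries a group, no test for a single outlying library could be made.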

How the results depend on the processing

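The counts of the 10 genes called were 2, 4 and 3 against control (E8-cSGcm, E8-cDRGcm, E15.5-mSGcm), and 1, 5 and 6 between media (E8-cSGcm against E8-cDRGcm, E15.5-mSGcm against E8-cSGcm and E8-cDRGcm). They stayed within 1.5 times under every alternative but adjusted p alone, which gave 9, 10, 9, 6 and 10 in the first 5. Leaving out 1 library gave 2 throughout, 4 to 5, 2 to 3, 1 throughout, 5 throughout and 6 to 7. Deviations of libraries with the same replicate number were barely correlated between groups (from -0.0437 to 0.042), which cannot show whether they were prepared as pairs. The replicate block gave 2, 4, 3, 1, 5 and 6. DESeq2 gave the same member counts, but over all genes called 861 against 1433 in E8-cSGcm and 697 against 1249 between the chick media. Adjusted p alone called 5213, 8261, 6305, 5037, 8304 and 8767 genes, with 51.2% higher between the chick media where the main rule had 65.0%.

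INA changed direction in E15.5-mSGcm against control, from 0.0022 to -0.039 (library totals), -0.054 (genes with at least 1 count), and between -0.031 and 0.022 without 1 library. NES between the chick media went from 0.048 to -0.019 with the GC and length correction. Both missed the threshold throughout. NEFM in E15.5-mSGcm lost its call with library totals (0.55) and with genes of at least 1 count (0.53), and STMN2 gained one (-0.61 and -0.63), so that the 3 called genes were all lower under both, where the main analysis had 1 higher and 2 lower. The cause was not tested. Of the single-gene results under all alternatives, 843 kept direction and side of the threshold, 43 gained the call (most of them under adjusted p alone), 8 lost it and 6 reversed.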
